A study of Mus musculus with 40 samples.

Results

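The subject is the retinal response to oxygen-induced retinopathy (OIR) that was present under VEGFA blockade. Retinas of mice with OIR whose eyes received an anti-VEGFA antibody were set against retinas of control mice (nOIR), all at postnatal day 19 (P19). These groups were chosen by their sample titles and hold 8 of the 40 libraries of the series, 4 in each group, and every gene that passed the filter on low counts was compared, which gave 23495 genes. The series holds whole retinas of C57BL/6J mice at P17 and P19, 4 per group, with control IgG, anti-VEGFA, anti-ANG2 or a bispecific antibody in OIR, and an nOIR group at each age. For the anti-VEGFA OIR retinas, pups breathed 75% oxygen from P7 to P12 and went back to room air, and at P14 each eye was given 1 µl of clone B20.4.1 at 0.2 µg/µl into the vitreous. The IgG OIR retinas, set beside both groups and part of the shared estimate of spread, had the same oxygen exposure and 1 µl of control IgG at 0.4 µg/µl. The nOIR retinas came from control mice, and the labels do not say whether those eyes were injected. Each library is labelled as the RNA of 1 whole retina, and in RNA from a whole tissue fewer cells of a type and less RNA per cell cannot be told apart in any result.

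In OIR, high oxygen stops the growth of retinal vessels and lets young capillaries regress, and the return to room air leaves the inner retina without enough oxygen. Hypoxia-inducible factors then switch on genes such as Vegfa, and new vessels sprout into the vitreous in tufts while microglia gather and Müller glia become reactive. VEGFA drives endothelial sprouting through its receptor KDR, and an antibody against the protein acts on this step and does not bind the Vegfa transcript.

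Of the tested genes of the interferon response and antigen presentation, 7 of 27 rose at P19, where 2.34% of all tested genes did. Promoters of such genes are known to share a short response element, so those of 2 genes that rose are shown. Each is the window from 250 bases before to 50 bases after the start of the gene, taken from RefSeq on build GRCm38.p6. Ifitm3, which codes for an interferon-induced membrane protein that restricts virus entry, lies on the minus strand (window chr7:141010695-141010994), and B2m, the light chain of MHC class I, lies on the plus strand (window chr2:122147437-122147736). Capitals mark matches to the interferon-stimulated response element (GAAA, 2 bases of any kind, GAAA) or, in Ifitm3, also to the STAT site (TTC, 3 bases of any kind, GAA), which overlaps the second response element there.
Ifitm3: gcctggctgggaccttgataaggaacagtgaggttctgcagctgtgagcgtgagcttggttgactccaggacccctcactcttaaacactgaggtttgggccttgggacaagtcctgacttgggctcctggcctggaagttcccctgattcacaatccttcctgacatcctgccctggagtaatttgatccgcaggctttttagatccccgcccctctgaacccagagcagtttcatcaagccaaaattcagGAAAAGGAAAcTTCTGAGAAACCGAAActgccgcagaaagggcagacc
B2m: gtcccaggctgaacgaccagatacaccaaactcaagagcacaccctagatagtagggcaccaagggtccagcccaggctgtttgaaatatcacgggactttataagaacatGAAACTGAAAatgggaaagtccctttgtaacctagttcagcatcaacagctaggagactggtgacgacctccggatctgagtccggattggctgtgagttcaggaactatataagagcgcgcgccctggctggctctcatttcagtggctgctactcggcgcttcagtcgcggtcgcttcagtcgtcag
Both strands were searched. The response element was found in 11 of the 23 interferon list members with a window (47.8%), and in 3.18% of the windows of 17617 tested genes. It was present in 4 of the 5 called members with a window. The STAT site was in 26.1% of the same 23 windows and in 7.36% of all windows. A match is a stretch of letters only, and no binding was measured.

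Library totals of the 8 retinas lay between 13202624 and 21127825 counts. Levels are given in CPM, a gene's count scaled to the total of its library with TMM factors, and compare samples, not genes. Cnga1, the rod channel subunit, averaged 802 ± 165 CPM in anti-VEGFA OIR retinas and 465 ± 20.9 CPM in nOIR retinas (SD, n = 4 each), so that the retina label was met in both groups. Anti-VEGFA OIR replicate 3 stood apart on the first principal component (score 166, the other 7 between −39.9 and 5.2), which held 26.4% of the variance. Mitochondrial ribosomal RNA took 0.650%, 0.939%, 1.45% and 1.53% of the counts in anti-VEGFA OIR replicates 1 to 4, against 0.618% to 0.704% in nOIR retinas. Replicates 3 and 4 of anti-VEGFA OIR also held both Y-linked transcripts (219 and 245 CPM) and Xist (104 and 17.4 CPM). The labels do not account for this, and whether these 2 libraries hold RNA of more than 1 animal was not tested. Replicates 1 and 2 had Xist (474 and 770 CPM) with no Y-linked counts. In the nOIR group, replicates 1 and 2 had Y-linked counts (186 and 181 CPM) with Xist under 1 CPM, and replicates 3 and 4 had Xist (339 and 436 CPM) with 7.38 and 0.560 CPM of Y-linked counts. Because the labels give no sex and the high mitochondrial share falls on 2 libraries of 1 group, results are also given without these 2, anti-VEGFA OIR replicates 3 and 4, called the doubtful libraries below. That leaves 2 anti-VEGFA OIR retinas, both with Xist and no Y-linked counts, against 4 nOIR retinas of both kinds. No other pair was left out, so how far calls lost in that fit reflect fewer libraries was not tested.

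**Figure D1:**
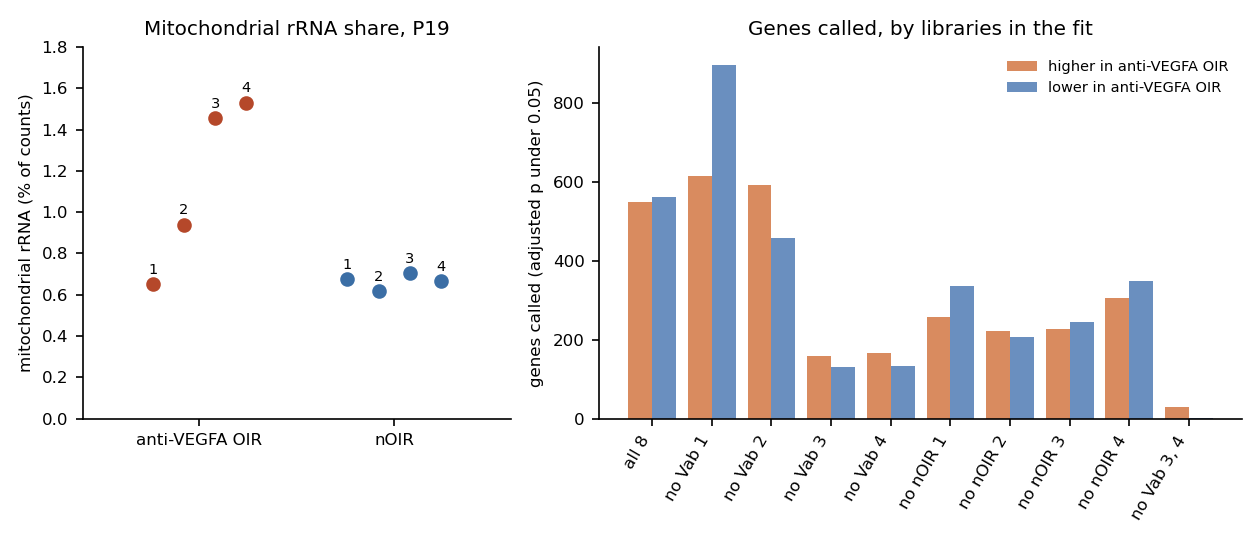
Left, share of counts from mitochondrial ribosomal RNA (percent) in each P19 library, with replicate numbers. Anti-VEGFA OIR replicates 2, 3 and 4 (0.939%, 1.45% and 1.53%) lie above all 4 nOIR retinas. Right, genes called higher or lower in anti-VEGFA OIR against nOIR (bars, number of genes) with all libraries and without the one named (Vab, anti-VEGFA OIR); the total is 1111 with all libraries and 32 without anti-VEGFA OIR replicates 3 and 4.

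At P19, 1111 of the 23495 genes (4.73%) differed between anti-VEGFA OIR and nOIR retinas at an adjusted p under 0.05 by edgeR's quasi-likelihood test with Benjamini-Hochberg adjustment. Of these, 549 (2.34%) were higher and 562 (2.39%) were lower in anti-VEGFA OIR. Counts of called list members are to be read against these 2 shares. Among the called genes, 160 were higher and 92 lower by at least 2-fold. Rose and fell refer to the level against nOIR at the same age, not to a change over time. The genes that rose included hypoxia-induced genes, microglia and macrophage genes with complement C1q, interferon-induced genes, reactive glia genes and pericyte genes. Those that fell included neurofilaments, hexokinases and other glycolytic enzymes, and amacrine cell genes. Calls were held in each of the 8 fits that leave out 1 compared library by 116 of the 549 higher genes and 88 of the 562 lower ones. The number of calls was 289 without anti-VEGFA OIR replicate 3 and 299 without replicate 4. Without both, where 2 anti-VEGFA OIR retinas remain, it was 32 (30 higher, 2 lower), of which 31 were among the 1111. The number was 593, 431, 472 and 654 without nOIR replicates 1, 2, 3 and 4. With the mitochondrial share as a covariate it was 54 (42 higher, 12 lower).

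**Figure D2:**
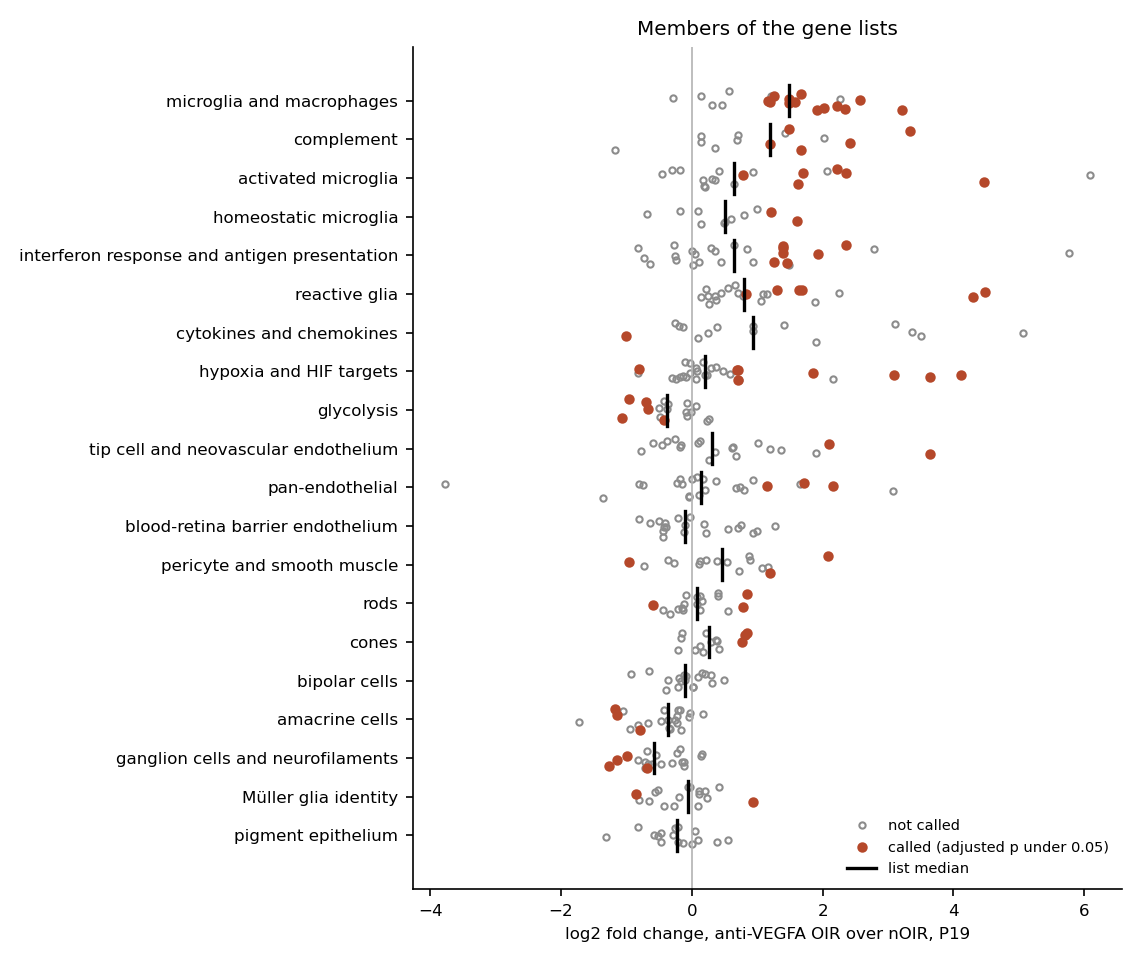
Log2 fold change of anti-VEGFA OIR over nOIR at P19 (horizontal axis) for each tested member of 20 gene lists (rows); filled points were called, open points were not, and the bar is the list median. The microglia and macrophage list has the highest median of the rows shown (1.49), and the ganglion cell and neurofilament list the lowest (−0.58).

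Hypoxia-induced genes were led by Ndufa4l2, a mitochondrial protein induced by HIF (chromosome 10, 127514967 to 127517154, plus strand on GRCm38). It had 43.5, 25.01, 34.4 and 40.2 CPM in the anti-VEGFA OIR retinas, against 1.53, 2.396, 2.23 and 2.04 CPM in the nOIR retinas. All 4 anti-VEGFA OIR values lay far above the highest nOIR value, and the gene was 17.4-fold higher (log2 fold change 4.12 ± 0.29 SE, adjusted p = 3.7e-13, edgeR). Adm, the vessel-dilating peptide adrenomedullin (chromosome 7, 110627661 to 110629820, plus strand), had 9.52, 10.9, 10.6 and 8.19 CPM in the anti-VEGFA OIR retinas, against 1.53, 1.31, 0.06202 and 0.255 CPM in the nOIR retinas. The groups did not overlap and the fold was 12.4 (log2 fold change 3.63 ± 0.48 SE, adjusted p = 1.9e-05, edgeR). Vegfa itself (chromosome 17, 46016993 to 46032369, minus strand) was measured at 160.2, 181, 122 and 183 CPM in the anti-VEGFA OIR retinas, against 109, 106, 84.04 and 95.04 CPM in the nOIR retinas. It was 1.64-fold higher with no overlap between the groups (log2 fold change 0.71 ± 0.20 SE, adjusted p = 0.03, edgeR). The call was lost without anti-VEGFA OIR replicate 2 or 4 or nOIR replicate 2, 3 or 4 (adjusted p up to 0.12, edgeR). It was also lost without both doubtful libraries (adjusted p = 0.23, edgeR) and on log2(TPM + 1) values (adjusted p = 0.36, limma). Of the 29 tested of 30 genes of the hypoxia list, 7 rose and 1 fell, where 2.34% and 2.39% of all tested genes did. Fold changes were positive for 19 of them and negative for 10. The list median was 0.21 against 0.02 over all genes on the log2 scale. On log2(TPM + 1) values with limma it was −0.02 against −0.13. The other risers were Egln3, an oxygen-sensing hydroxylase (3.62-fold), Stc2, a secreted glycoprotein (8.53-fold), Ankrd37 (1.605-fold) and the mitochondrial protein Fam162a (1.64-fold). Pdk1, which keeps pyruvate out of the mitochondrion and is itself a HIF target, fell to 40.1, 32.1, 18.9 and 29.1 CPM in anti-VEGFA OIR retinas, against 67.6, 60, 32.9 and 49.1 CPM in nOIR retinas (log2 fold change -0.80 ± 0.20 SE, adjusted p = 0.015, edgeR), and the groups overlapped. Ndufa4l2 and Adm were the only members of the list called in all 8 fits that leave out 1 library. They were also called without both doubtful libraries, where 2 members rose and none fell.

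The HIF core ACGTG was in 13 of the 25 promoter windows of the hypoxia list (52.0%), against 22.3% of all windows. Of the 6 called higher members with a window, 3 held it, and the Adm window did not. No window was found for Ndufa4l2.

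**Figure D3:**
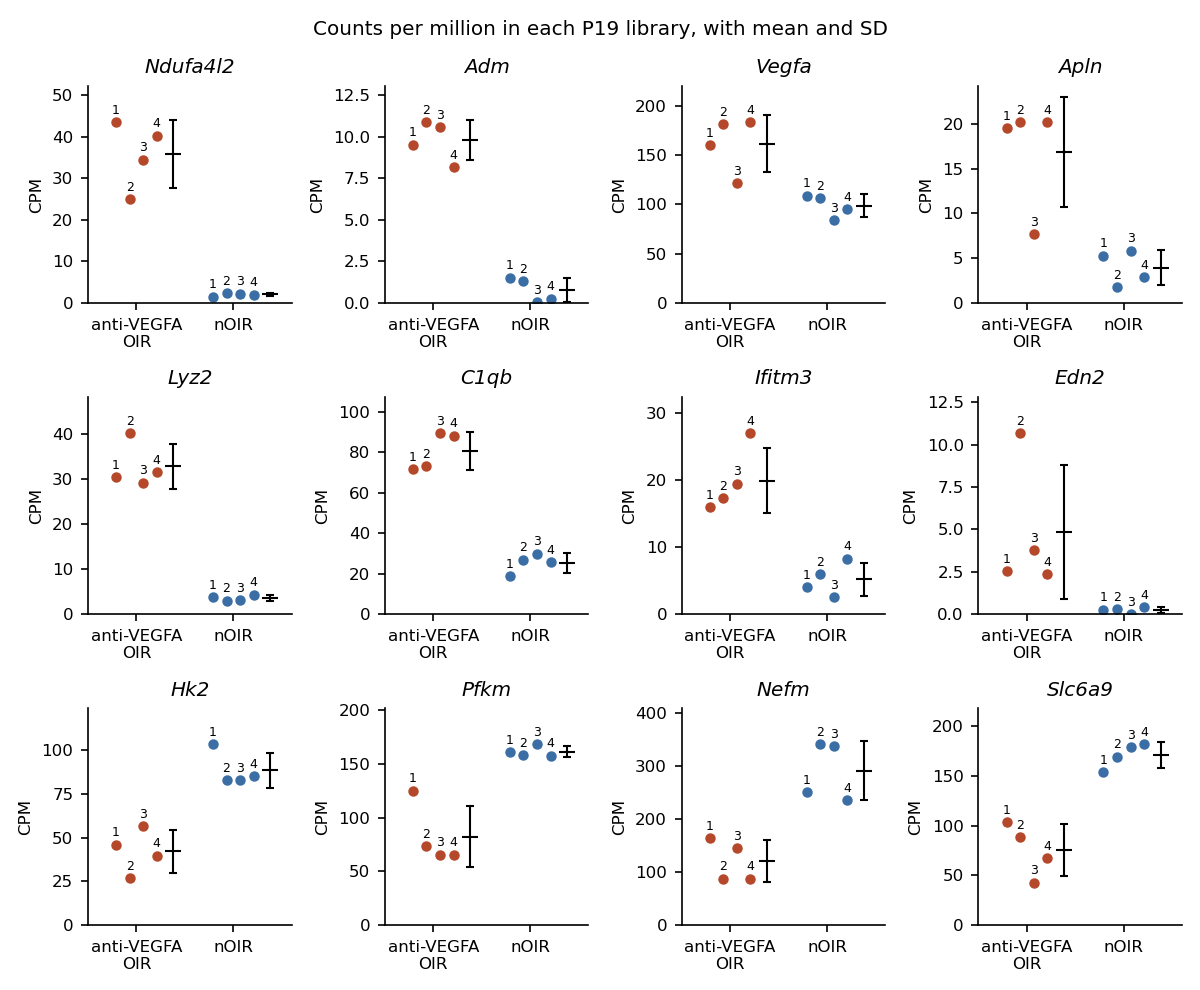
CPM (linear axis from 0) of 12 genes in each P19 library, with replicate numbers; the dash and whiskers are the mean and SD of the 4 libraries. Ndufa4l2, Adm, Vegfa, Apln, Lyz2, C1qb, Ifitm3 and Edn2 are higher in anti-VEGFA OIR than in nOIR, and Hk2, Pfkm, Nefm and Slc6a9 are lower, with no overlap between the groups in any panel.

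Vessel genes moved unevenly. Apln, the tip cell peptide apelin (chromosome X, 48025146 to 48034853, minus strand), had 19.5, 20.2, 7.66 and 20.2 CPM in the anti-VEGFA OIR retinas, against 5.29, 1.797, 5.83 and 2.902 CPM in the nOIR retinas. Every anti-VEGFA OIR value was above every nOIR value, although replicate 3 lay far below the other 3, and the gene was 4.297-fold higher (log2 fold change 2.10 ± 0.34 SE, adjusted p = 0.00045, edgeR). Esm1, a tip cell gene induced by VEGF, had 2.44, 0.212, 0.906 and 0.512 CPM in the anti-VEGFA OIR retinas, against 1.21, 0.163, 0 and 0.204 CPM in the nOIR retinas, which are low levels that overlap. Plvap, the fenestral diaphragm protein of leaky vessels, had 4.54, 2.12, 1.18 and 2.27 CPM in the anti-VEGFA OIR retinas, against 5.099, 5.06, 3.97 and 3.41 CPM in the nOIR retinas. It was not called (adjusted p = 0.29, edgeR). Angpt2, the vessel-destabilizing angiopoietin, had 7.27, 13.3, 2.86 and 3.29 CPM in the anti-VEGFA OIR retinas, against 4.14, 3.43, 4.84 and 4.99 CPM in the nOIR retinas. The groups overlapped, with anti-VEGFA OIR replicate 2 the highest of the 8 and replicates 3 and 4 the lowest. Of the 20 genes of the tip cell and neovascular list, Adm and Apln rose and none fell. The median was 0.31, with 0.18 without anti-VEGFA OIR replicate 1, 0.51 without replicate 3 and 0.14 without nOIR replicate 1.

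The VEGF receptors were not called. Kdr, the main signalling receptor, averaged 79.2 ± 19.9 CPM in anti-VEGFA OIR retinas and 88.05 ± 22.6 CPM in nOIR retinas, and Flt1, the decoy receptor, averaged 36.2 ± 3.51 CPM in anti-VEGFA OIR retinas and 37.3 ± 6.64 CPM in nOIR retinas (SD, n = 4 each; adjusted p = 0.83 and 0.96, edgeR). Tek, the angiopoietin receptor, had 3.76, 0.565, 0.139 and 0.0731 CPM in anti-VEGFA OIR, against 1.402, 0.871, 0.434 and 2.04 CPM in nOIR. Of the 16 ligands and receptors of the VEGF and angiopoietin families, Vegfa alone was called. Pgf, a further ligand of FLT1, averaged 3.56 ± 2.28 CPM in anti-VEGFA OIR retinas and 2.22 ± 1.69 CPM in nOIR retinas (adjusted p = 0.68).

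Among 24 pan-endothelial genes, 3 rose, and the median was 0.14 (0.22 and 0.30 without anti-VEGFA OIR replicate 2 and 3, 0.30 and 0.34 without nOIR replicate 2 and 4). They were Emcn, a sialomucin of veins and capillaries (4.48-fold), the progenitor and tip cell marker Cd34 (2.23-fold) and Ecscr, a regulator of endothelial migration (3.28-fold). None of the 3 was called without anti-VEGFA OIR replicate 3 or without replicate 4. Pecam1 averaged 3.68 ± 2.298 CPM in anti-VEGFA OIR retinas and 2.32 ± 0.561 CPM in nOIR retinas (adjusted p = 0.57, edgeR). Of 20 genes of the blood-retina barrier none was called. Cldn5, the tight junction claudin of brain and retinal endothelium, had 7.91, 9.32, 8.01 and 8.04 CPM in the anti-VEGFA OIR retinas, against 3.44, 4.14, 5.89 and 3.16 CPM in the nOIR retinas. The groups did not overlap and the fold was 2.002, with an adjusted p of 0.052 by edgeR. Of 16 pericyte and smooth muscle genes, 2 rose and 1 fell, with a median of 0.46, or 0.20 without anti-VEGFA OIR replicate 1. Rgs5, a regulator of G protein signalling in pericytes, had 107, 103, 77.7 and 118 CPM in the anti-VEGFA OIR retinas, against 44.5, 51.9, 36.7 and 44.5 CPM in the nOIR retinas. It was 2.28-fold higher (log2 fold change 1.19 ± 0.22 SE, adjusted p = 0.0016, edgeR), and Higd1b, another pericyte gene, was 4.24-fold higher (log2 fold change 2.08 ± 0.33 SE, adjusted p = 0.00023). Mylk, the myosin light chain kinase of contractile cells, fell to a mean of 64.9 ± 12.7 CPM in anti-VEGFA OIR, against 126 ± 29.8 CPM in nOIR. Rgs5 and Higd1b were called in every fit that leaves out 1 library and without both doubtful ones, and Mylk was lost without both (adjusted p = 0.26). Of the 21 tested of 22 basement membrane and matrix genes, 1 rose (Timp1, below).

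Of all lists, that of microglia and macrophages had the largest share of called members. Of its 20 genes, 13 rose and none fell, 19 fold changes were positive, and the median was 1.49 on the log2 scale. Lyz2, lysozyme of macrophages (chromosome 10, 117277331 to 117282321, minus strand), had 30.5, 40.3, 29.3 and 31.6 CPM in the anti-VEGFA OIR retinas, against 3.697, 2.995, 3.101 and 4.33 CPM in the nOIR retinas. It was 9.29-fold higher (log2 fold change 3.21 ± 0.36 SE, adjusted p = 2.8e-07, edgeR). Tyrobp, the signalling adaptor of TREM2, had 15.6, 15.7, 24.7 and 32.7 CPM in the anti-VEGFA OIR retinas, against 3.76, 4.79, 5.64 and 4.84 CPM in the nOIR retinas. It was 4.65-fold higher, with replicates 3 and 4 above replicates 1 and 2 within the anti-VEGFA OIR group (log2 fold change 2.22 ± 0.30 SE, adjusted p = 2.1e-05, edgeR). Aif1, which codes for the microglial protein IBA1, was low but separate, at 1.95, 1.55, 1.602 and 2.12 CPM in the anti-VEGFA OIR retinas, against 0.191, 0.544, 0.248 and 0.407 CPM in the nOIR retinas. The lysosomal genes Cd68 and Ctss rose 4.06-fold and 2.25-fold, the Fc receptor genes Fcer1g and Fcgr3 3.79-fold and 2.801-fold, and Adgre1, the F4/80 antigen, 5.94-fold. Without both doubtful libraries 5 of the 20 were called with a median of 1.34, and with the mitochondrial share as covariate 6 were called.

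All 3 chains of complement C1q, which microglia make in the retina, rose. C1qb (chromosome 4, 136880129 to 136886187, minus strand) had 71.6, 73.3, 89.5 and 88.2 CPM in the anti-VEGFA OIR retinas, against 18.6, 26.9, 29.8 and 25.6 CPM in the nOIR retinas. The groups were far apart and the fold was 3.19 (log2 fold change 1.68 ± 0.23 SE, adjusted p = 2.5e-05, edgeR). C1qc rose 2.81-fold (adjusted p = 7.5e-05) and C1qa 2.297-fold (adjusted p = 0.0013). The anaphylatoxin receptors C3ar1 and C5ar1 rose 5.33-fold and 10.1-fold. C3, the central component, had 1.27, 6.85, 0.209 and 0 CPM in the anti-VEGFA OIR retinas, against 1.98, 1.85, 1.49 and 2.24 CPM in the nOIR retinas, and the groups overlapped (adjusted p = 0.97, edgeR). In all, 5 of the 13 tested of 14 complement genes rose, with a median of 1.2 (0.76 without anti-VEGFA OIR replicate 1), and 3 did so without both doubtful libraries.

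Genes of activated microglia rose in 6 of 19 cases, with a median of 0.65, and homeostatic genes in 2 of 11, with a median of 0.51 (0.25 without anti-VEGFA OIR replicate 4). Without both doubtful libraries 1 activated gene was called, Tyrobp, and no homeostatic one (adjusted p = 0.29 for Trem2 and 0.12 for Clec7a, edgeR). Trem2, a lipid-sensing receptor of activated microglia, had 8.98, 5.51, 14.3 and 10.3 CPM in the anti-VEGFA OIR retinas, against 3.57, 3.87, 3.85 and 1.43 CPM in the nOIR retinas. It was 3.08-fold higher (log2 fold change 1.62 ± 0.33 SE, adjusted p = 0.0036, edgeR). Clec7a, the beta-glucan receptor dectin-1, had 4.64, 5.79, 14.5 and 3.22 CPM in the anti-VEGFA OIR retinas, against 0.574, 0.109, 0 and 0.5600 CPM in the nOIR retinas. It was 22.1-fold higher, with replicate 3 the highest (adjusted p = 0.0058, edgeR). Lgals3, galectin 3, rose 3.26-fold and Igf1, a growth factor that microglia and other cells release, 1.72-fold. Spp1, osteopontin, averaged 60.9 ± 11.2 CPM in anti-VEGFA OIR retinas and 83.6 ± 8.15 CPM in nOIR retinas (adjusted p = 0.31). The homeostatic genes that rose were Gpr34 (2.31-fold, groups overlapping) and Fcrls (3.06-fold). Among markers of T cells, B cells and neutrophils, 5 of 14 passed the filter and none was called, and their summed level was 1.07 to 3.90 CPM in anti-VEGFA OIR and 1.85 to 4.74 CPM in nOIR.

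Interferon-induced and antigen presentation genes rose in 7 of 27 tested cases (28 listed) and fell in none, with a median of 0.64. Of all tested genes, 2.34% rose and 2.39% fell. Ifitm3 had 15.96, 17.3, 19.4 and 26.99 CPM in the anti-VEGFA OIR retinas, against 4.02, 5.99, 2.48 and 8.25 CPM in the nOIR retinas. It was 3.82-fold higher (log2 fold change 1.93 ± 0.30 SE, adjusted p = 0.0002, edgeR). B2m had 77.4, 67.8, 89.7 and 106 CPM in the anti-VEGFA OIR retinas, against 23.6, 29.3, 34.9 and 41.6 CPM in the nOIR retinas, a 2.63-fold rise with no overlap (log2 fold change 1.40 ± 0.23 SE, adjusted p = 0.00045, edgeR). Ifitm2, a paralogue of Ifitm3, rose 2.63-fold, Ifi27, an interferon-induced protein of membranes, 2.39-fold, Bst2, tetherin, 2.62-fold, Psmb8, an immunoproteasome subunit, 2.74-fold, and Cd74, the invariant chain of MHC class II, 5.101-fold. Members without a call included Ifit3 at 26.4, 14.1, 7.45 and 15.7 CPM in anti-VEGFA OIR, against 18.1, 33.3, 28.6 and 26.1 CPM in nOIR, and Stat2, at mean values of 16.5 ± 4.56 CPM in anti-VEGFA OIR retinas and 25.6 ± 2.16 CPM in nOIR retinas. Ifitm3 was called in all 8 fits that leave out 1 library and without both doubtful libraries, where it was the only called member. Ifitm2 and Ifitm3 are close paralogues, so the counting could have split reads between them.

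Of 15 tested of 20 cytokines and chemokines, none rose and 1 fell. Their median of 0.94 was not stable: it was 0.31 without both doubtful libraries, 0.14 with the 8 libraries fitted alone, and 0.54 to 0.58 without anti-VEGFA OIR replicate 2 or 4 or nOIR replicate 3 or 4. Ccl2, the monocyte attractant, had 0.537, 0, 0 and 0.658 CPM in the anti-VEGFA OIR retinas, against 0.0637, 0, 0 and 0.0509 CPM in the nOIR retinas and was thus at or near 0 in every library. Cx3cl1, the neuronal ligand of the microglial receptor CX3CR1, fell to 75.96, 46.7, 47.1 and 40.7 CPM in anti-VEGFA OIR, against 109, 126, 117 and 73.1 CPM in nOIR. The highest anti-VEGFA OIR value lay just above the lowest nOIR value (log2 fold change -1.01 ± 0.21 SE, adjusted p = 0.0046, edgeR). The call was lost without both doubtful libraries (adjusted p = 0.28).

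All 22 genes of the reactive glia list had positive fold changes, with a median of 0.80, and 7 of them were called. Edn2, endothelin 2, which stressed photoreceptors release and which acts on Müller glia, had 2.54, 10.7, 3.76 and 2.34 CPM in the anti-VEGFA OIR retinas, against 0.255, 0.272, 0 and 0.407 CPM in the nOIR retinas. Every anti-VEGFA OIR value was above every nOIR value, and replicate 2 was by far the highest (19.7-fold; log2 fold change 4.30 ± 0.84 SE, adjusted p = 0.003, edgeR). Timp1, an inhibitor of matrix metalloproteinases, had 2.44, 5.44, 3.41 and 2.41 CPM in the anti-VEGFA OIR retinas, against 0, 0.218, 0.372 and 0 CPM in the nOIR retinas. It was 22.4-fold higher (log2 fold change 4.49 ± 0.94 SE, adjusted p = 0.0047, edgeR), a fold that rests on very few nOIR reads. S100a6, a calcium-binding protein of reactive astrocytes and Müller cells, had 18.6, 16.6, 19.99 and 23.7 CPM in the anti-VEGFA OIR retinas, against 5.29, 4.08, 5.77 and 10.1 CPM in the nOIR retinas, a 3.11-fold rise (adjusted p = 0.002). Cebpd, a transcription factor of the acute phase, rose 3.21-fold, and the metallothioneins Mt1 and Mt2 1.77-fold and 2.48-fold.

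Gfap, the intermediate filament that Müller glia take up on injury, was measured at 153, 178, 70.01 and 178 CPM in the anti-VEGFA OIR retinas, against 72.7, 40.2, 47.6 and 112 CPM in the nOIR retinas. The groups overlapped, since anti-VEGFA OIR replicate 3 had a level inside the nOIR range, and the gene was not called (log2 fold change 1.08 ± 0.35 SE, adjusted p = 0.064, edgeR). Edn2 and Timp1 were the members called without both doubtful libraries. Of 17 genes of Müller glia identity, 1 rose and 1 fell. Crym, a thyroid hormone binding protein, rose 1.91-fold and Dkk3, a secreted protein of the Dickkopf family, fell to a mean of 379 ± 117 CPM in anti-VEGFA OIR, against 686 ± 42.7 CPM in nOIR, a call held in 1 of the 8 fits that leave out a library.

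Glycolytic enzymes fell or did not pass the test. Of 17 genes, 5 fell and none rose, 14 had negative fold changes, and the median was −0.38. Hk2, the inducible hexokinase of photoreceptors, had 46.04, 26.99, 56.6 and 39.8 CPM in the anti-VEGFA OIR retinas, against 104, 82.8, 83.05 and 85.2 CPM in the nOIR retinas. It fell to 0.478 of the nOIR level (log2 fold change -1.06 ± 0.23 SE, adjusted p = 0.0053, edgeR), with no overlap between the groups. Pfkm, the muscle-type phosphofructokinase, had 125, 73.5, 65.6 and 65.7 CPM in the anti-VEGFA OIR retinas, against 161, 158, 168 and 158 CPM in the nOIR retinas. The anti-VEGFA OIR replicates 2 to 4 lay close together and replicate 1 between them and the nOIR group (log2 fold change -0.97 ± 0.18 SE, adjusted p = 0.0021, edgeR). Hk1 was at 0.612, the neuronal enolase Eno2 at 0.628 and Gpi1 at 0.741 of the nOIR level. Ldha, which makes lactate, averaged 4388 ± 472 CPM in anti-VEGFA OIR retinas and 3730.0 ± 258 CPM in nOIR retinas, and Pgk1 919.5 ± 133 CPM in anti-VEGFA OIR retinas and 966 ± 66.5 CPM in nOIR retinas (adjusted p = 0.52 and 0.89). Hk2 was called without both doubtful libraries and the other 4 were not.

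Neurofilament genes fell together. Nefm, the medium chain (chromosome 14, 68082590 to 68124846, minus strand), had 164, 87.5, 145 and 87.6 CPM in the anti-VEGFA OIR retinas, against 251, 342, 338 and 236 CPM in the nOIR retinas. Nefh, the heavy chain, had 154, 98.1, 149 and 94.7 CPM in the anti-VEGFA OIR retinas, against 239, 315, 337 and 208 CPM in the nOIR retinas. Nefl, the light chain, had 1203, 814, 880.0 and 711 CPM in the anti-VEGFA OIR retinas, against 1617, 2019, 2021 and 1517 CPM in the nOIR retinas. In each case every anti-VEGFA OIR retina was below every nOIR retina, at 0.415, 0.452 and 0.503 of the nOIR level (adjusted p = 0.0012, 0.0018 and 0.0067, edgeR). Of the 20 genes of the ganglion cell and neurofilament list, 4 fell and none rose, 18 had negative fold changes, and the median was −0.58; the fourth was Tubb3, a neuronal tubulin, which was called in 1 of the 8 fits that leave out a library. Pou4f1, a transcription factor that defines ganglion cells, and Rbpms, an RNA-binding protein of these cells, were not called. Pou4f1 averaged 13.7 ± 4.57 CPM in anti-VEGFA OIR retinas and 21.9 ± 0.762 CPM in nOIR retinas, with an adjusted p of 0.071 by edgeR, near the threshold. Rbpms averaged 46.1 ± 7.74 CPM in anti-VEGFA OIR retinas and 53.98 ± 7.56 CPM in nOIR retinas (adjusted p = 0.67, edgeR). Without both doubtful libraries no member was called (Nefm adjusted p = 0.053, Nefh 0.067), and the median was −0.53.

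Amacrine cell genes had negative fold changes in 21 of 22 cases, with a median of −0.36, and 3 fell. Slc6a9, the glycine transporter of glycinergic amacrine cells, had 104, 88.5, 42.6 and 67.6 CPM in the anti-VEGFA OIR retinas, against 154, 169.5, 179 and 182 CPM in the nOIR retinas, a clear separation (log2 fold change -1.18 ± 0.23 SE, adjusted p = 0.0032, edgeR). Gad1, the GABA-making enzyme, fell to 167, 86.8, 102 and 88.7 CPM in anti-VEGFA OIR, against 201, 267, 276 and 242 CPM in nOIR, and Calb2, calretinin, was at 0.579 of the nOIR level. The calls of Gad1 and Calb2 were lost without anti-VEGFA OIR replicate 4, and no member was called without both doubtful libraries, where the median was −0.40. None of 18 bipolar cell and 8 tested horizontal cell genes was called, with medians of −0.10 and −0.01.

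In photoreceptors, Cngb3, a subunit of the cone channel, had 47.6, 52.7, 53.4 and 48.1 CPM in the anti-VEGFA OIR retinas, against 28.2, 30.1, 26.4 and 30.8 CPM in the nOIR retinas. It rose 1.75-fold (log2 fold change 0.81 ± 0.18 SE, adjusted p = 0.0085, edgeR). Cnga1 rose 1.73-fold (adjusted p = 0.0039), and Pde6a, a subunit of rod phosphodiesterase, fell to 0.665 of the nOIR level (adjusted p = 0.026). Cngb3 and Cnga1 lost their calls without both doubtful libraries (adjusted p = 0.20 and 0.36, edgeR), and Cngb3 also on log2(TPM + 1). Pde6a kept its call in 3 of the 8 fits that leave out a library (adjusted p = 0.12 without replicate 3 or 4). The small genes Gngt1, Gngt2 and Pde6h rose 1.79-fold, 1.71-fold and 1.802-fold. Their values were highest in the 2 libraries with a high mitochondrial share: Gngt2 had 164, 156, 252 and 254 CPM in the anti-VEGFA OIR retinas, against 108, 116, 132 and 127 CPM in the nOIR retinas, and none of these 3 was called without replicate 3 or 4. In total 2 of 18 rod genes rose and 1 fell, with a median of 0.08, and 3 of 14 cone genes rose, with a median of 0.26. Without both doubtful libraries these medians were −0.05 and 0.13.

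Other lists held few calls. None was called among proliferation genes (22 tested), immediate early genes (17), astrocyte genes (7), red blood cell genes (8), pigment epithelium genes (16), crystallins (16) and other lens genes (10). Cdkn1a, the cell cycle inhibitor p21, rose 1.91-fold as the single call of 14 p53 targets, and Cox7a2, a subunit of cytochrome oxidase, 1.703-fold as the single call of 19 oxidative phosphorylation genes. Cdkn1a kept its call in 3 and Cox7a2 in 2 of the 8 fits that leave out a library, and Cox7a2 lost it with the length trend removed. Rpe65, which marks pigment epithelium left on the retina, had 53.99, 74.3, 42.1 and 145 CPM in the anti-VEGFA OIR retinas, against 36.2, 77.3, 63.95 and 118 CPM in the nOIR retinas, and the lens crystallin Cryaa had 3.56, 10.9, 16.1 and 31.5 CPM in the anti-VEGFA OIR retinas, against 32, 19.9, 7.195 and 1.32 CPM in the nOIR retinas, so that both markers covered overlapping ranges in the groups. With the mitochondrial share as a covariate the called members numbered 6 for microglia and macrophages, 4 for complement, 3 each for reactive glia and hypoxia targets, 2 each for interferon response, pericyte, tip cell and neurofilament genes, 1 for glycolysis and 0 for amacrine cells, rods and cones. The lists share members, so their counts are not independent. C1qa, C1qb and C1qc stand under both microglia and complement, and Tyrobp under both microglia and activated microglia. Adm stands under hypoxia and tip cell, Vegfa under hypoxia and VEGF, Timp1 under matrix and reactive glia, and Cd74 under activated microglia and interferon.

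By size of fold, and with at least 5 CPM in the group with more and no overlap, the 10 leading higher genes were Clec7a, Ndufa4l2, Adm, Lad1, Lyz2, C3ar1, Dab2, Bcl2a1b, Tyrobp and Hmox1. Without overlap stood 6.29% of all tested genes on the higher side and 5.73% on the lower side. Hmox1, the heme-degrading enzyme heme oxygenase 1, had 6.298, 21.7, 8.99 and 7.24 CPM in the anti-VEGFA OIR retinas, against 1.78, 2.505, 3.35 and 2.54 CPM in the nOIR retinas, with replicate 2 the highest (4.32-fold, adjusted p = 0.0086). Dab2, an endocytic adaptor of macrophages and endothelium, rose 5.19-fold, Bcl2a1b, a survival gene of myeloid cells, 4.74-fold and Lad1, an anchoring filament protein, 10.9-fold. The 10 leading lower genes were Kcns2, Igfbp6, Hs3st2, Ankrd34c, Lrrn2, B3gnt9, Adgrg1, Gsg1l, D10Wsu102e and Nagpa. Lrrn2, a neuronal leucine-rich repeat protein, had 8.49, 8.76, 1.39 and 5.05 CPM in the anti-VEGFA OIR retinas, against 21.9, 22.3, 22.02 and 20.4 CPM in the nOIR retinas. It stood at 0.275 of the nOIR level (log2 fold change -1.86 ± 0.47 SE, adjusted p = 0.015, edgeR), with replicate 3 the lowest. Gsg1l, an AMPA receptor auxiliary subunit, stood at 0.303 and Kcns2, a silent potassium channel subunit, at 0.1903 of the nOIR level. Of the 10 lower genes none kept its call in all 8 fits that leave out 1 library, while Clec7a, Ndufa4l2, Adm, Lyz2, C3ar1 and Tyrobp did.

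Exon length moved with the fold changes. Genes called higher had a median merged exon length of 2520 bases and genes called lower 5246.5 bases, against 3806 bases over all tested genes with a length, where 93.8% of the higher and 97.9% of the lower genes had one. In the shortest of 5 length bins of genes with a mean of at least 5 CPM, 9.70% were called higher and 1.28% lower, with a median log2 fold change of 0.20. In the middle bin, 1.92% were called higher and 6.97% lower, with a median of −0.12. Relative to the mean of the 8 libraries, the median log2 level of the shortest bin stood at 0.14, −0.11, 0.24 and 0.15 in anti-VEGFA OIR replicates 1 to 4. In IgG OIR against nOIR at P19, the median log2 fold change was 0.26 in the shortest bin and −0.11 in the longest. In anti-VEGFA OIR against nOIR at P17, these medians were 0.13 and −0.02. With a length trend removed from each library 1491 genes were called (825 higher, 666 lower), and on log2(TPM + 1) values with limma 2060 genes were called, of which 474 were higher and 1586 lower, with the median of all genes at −0.13. With the trend removed, 6 genes of the neurofilament and ganglion cell list and 7 of the glycolysis list fell, and 13 of the microglia and macrophage list rose.

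**Figure D4:**
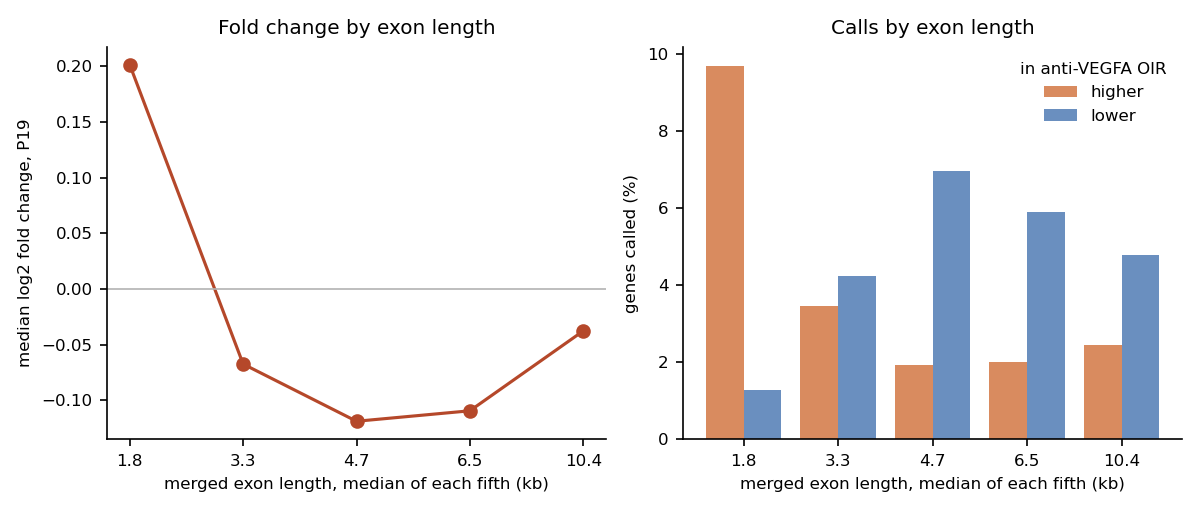
Left, median log2 fold change of anti-VEGFA OIR over nOIR at P19 in 5 equal groups of genes by merged exon length (kilobases, median of each group). Right, percent of each group called higher or lower; the shortest group has 9.70% higher and 1.28% lower calls.

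At P17, 3 days after the injection, the same contrast in other retinas called 151 genes (0.643%), of which 146 (0.621%) were higher and 5 (0.0213%) lower in anti-VEGFA OIR. The ages share no library. Of the genes called higher, 59 were called at both ages, which is 10.8% of the 549 at P19 and 40.4% of the 146 at P17. Of the genes called lower, 1 was called at both ages, which is 0.178% of the 562 at P19 and 1 of the 5 at P17. Of the 549, 520 had a positive fold change at P17, and of the 562 lower genes, 336 had a negative one. Ndufa4l2 at P17 averaged 55.1 ± 12.1 CPM in anti-VEGFA OIR retinas and 7.32 ± 1.41 CPM in nOIR retinas, a 7.52-fold difference (adjusted p = 1.6e-09, edgeR). Apln averaged 39.3 ± 13.7 CPM in anti-VEGFA OIR retinas and 4.09 ± 1.52 CPM in nOIR retinas (9.49-fold), and Vegfa 229.7 ± 54.2 CPM in anti-VEGFA OIR retinas and 97.1 ± 6.89 CPM in nOIR retinas (2.37-fold, adjusted p = 0.00041). Gfap, which was not called at P19, averaged 149.6 ± 23.9 CPM in anti-VEGFA OIR retinas and 39.8 ± 16.2 CPM in nOIR retinas at P17 (3.76-fold, adjusted p = 0.0039). Ifitm3 averaged 14.9 ± 2.67 CPM in anti-VEGFA OIR retinas and 10.1 ± 1.004 CPM in nOIR retinas at P17 (adjusted p = 0.51). Median log2 fold changes of the lists at P19 and P17 were 1.49 and 1.23 for microglia and macrophages, 0.80 and 1.12 for reactive glia, 0.21 and 0.39 for hypoxia targets, −0.38 and 0.28 for glycolysis, and −0.58 and −0.09 for ganglion cells and neurofilaments. The P17 list median was 0.91 for pigment epithelium, with 3 of 16 genes called higher, and 8.36 for crystallins, with 0 of 16 called. Cryaa averaged 615 ± 1224 CPM in anti-VEGFA OIR retinas and 0.0337 ± 0.0673 CPM in nOIR retinas (adjusted p = 0.063, edgeR). Its SD was above its mean, so lens RNA was very uneven between the anti-VEGFA OIR retinas at P17. With both lists as covariates 80 genes were called at P17, and 64 were called without anti-VEGFA OIR replicate 1, 99 without replicate 2, 67 without nOIR replicate 3 and 57 without nOIR replicate 4.

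The difference between the effects at the ages was called for 2 genes (0.00851%). Kcnab2, a beta subunit of potassium channels (chromosome 4, 152390742 to 152477871, minus strand), had 168, 148, 108 and 111 CPM in the anti-VEGFA OIR retinas, against 231, 277, 242 and 222 CPM in the nOIR retinas at P19. At P17 it averaged 166 ± 11.8 CPM in anti-VEGFA OIR retinas and 137 ± 26.8 CPM in nOIR retinas, and the effect at P19 was lower than that at P17 (log2 difference -1.14 ± 0.20 SE, adjusted p = 0.031, edgeR). Canx, the endoplasmic reticulum chaperone calnexin, had 344, 216, 197 and 245 CPM in the anti-VEGFA OIR retinas, against 369, 409, 391 and 416 CPM in the nOIR retinas at P19. At P17 it averaged 373 ± 51.6 CPM in anti-VEGFA OIR retinas and 266 ± 15.6 CPM in nOIR retinas (log2 difference -1.15 ± 0.21 SE, adjusted p = 0.031, edgeR). Both lost the call without anti-VEGFA OIR replicate 3 or 4 at P19 or without any 1 of the nOIR retinas at P19, and without anti-VEGFA OIR replicate 1 or 4 or nOIR replicate 1 or 4 at P17. Canx also lost it without anti-VEGFA OIR replicate 2 at either age and without nOIR replicate 2 at P17. With pigment epithelium and lens RNA, which moved with the groups at P17, as covariates, both were lost (adjusted p = 0.21 for Kcnab2 and 0.26 for Canx), as they were with the IgG libraries left out of the fit (0.085 each). Without anti-VEGFA OIR replicate 1 at P19 the count was 108, and without nOIR replicate 3 at P17 it was 10. The difference between ages was not called for Gfap (log2 difference -0.83 ± 0.49 SE, adjusted p = 0.65) or Hk2 (log2 difference -1.57 ± 0.32 SE, adjusted p = 0.099). Hk2 averaged 34.8 ± 2.26 CPM in nOIR retinas at P17 and 88.65 ± 10.01 CPM at P19. In anti-VEGFA OIR retinas it averaged 49.5 ± 15.1 CPM at P17 and 42.3 ± 12.4 CPM at P19.

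**Figure D5:**
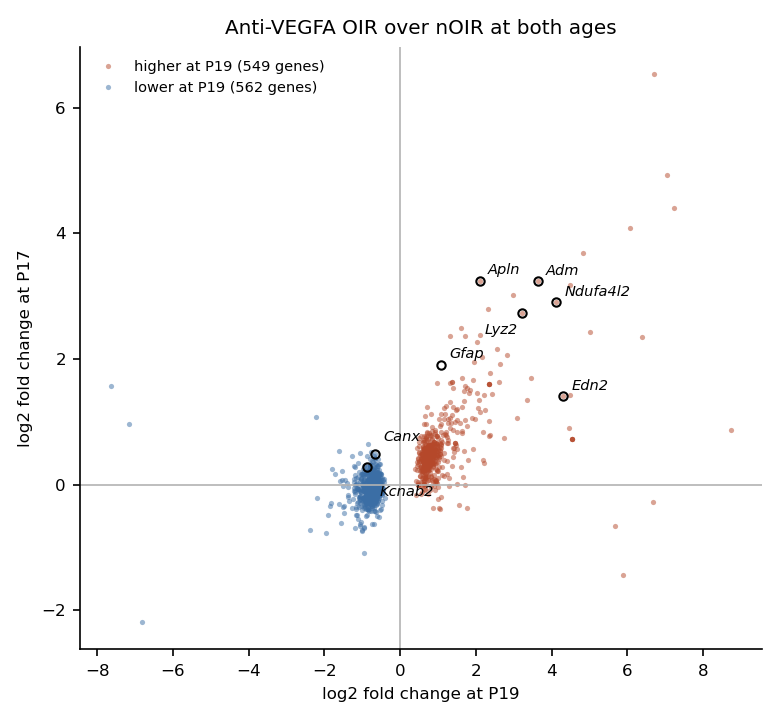
Log2 fold change of anti-VEGFA OIR over nOIR at P19 (horizontal) and P17 (vertical) for the 549 genes called higher and the 562 called lower at P19; ringed points are named, with Gfap added as a gene not called at P19. Of the higher genes 520 lie above 0 at P17, and of the lower genes 336 lie below 0.

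Against nOIR, the IgG OIR retinas at P19 had 216 called genes (0.919%), 193 higher (0.821%) and 23 lower (0.0979%). That comparison uses the same nOIR libraries, so its values are given beside those of anti-VEGFA OIR without an overlap, and the difference was tested between the OIR groups directly. Between anti-VEGFA and IgG OIR retinas edgeR called none of the 23495 genes (0%) at P19, with 2615 genes at an unadjusted p under 0.05, and DESeq2 called 38. Without anti-VEGFA OIR replicate 1 edgeR called 88 genes, of which 83 were lower under anti-VEGFA. Ndufa4l2 averaged 35.8 ± 8.09 CPM under anti-VEGFA and 46.6 ± 13.9 CPM under IgG (log2 difference -0.38 ± 0.24 SE, adjusted p = 0.58). Vegfa averaged 162 ± 28.7 CPM under anti-VEGFA and 168 ± 30.4 CPM under IgG (log2 difference -0.05 ± 0.20 SE, adjusted p = 0.95), Apln 16.9 ± 6.16 CPM under anti-VEGFA and 26.2 ± 5.05 CPM under IgG (log2 difference -0.63 ± 0.32 SE, adjusted p = 0.45) and Plvap 2.53 ± 1.43 CPM under anti-VEGFA and 5.37 ± 0.731 CPM under IgG (log2 difference -1.07 ± 0.39 SE, adjusted p = 0.33). Lyz2 averaged 32.9 ± 5.01 CPM under anti-VEGFA and 37.02 ± 2.91 CPM under IgG (log2 difference -0.17 ± 0.32 SE, adjusted p = 0.89), C1qb 80.7 ± 9.52 CPM under anti-VEGFA and 86.01 ± 17.4 CPM under IgG (log2 difference -0.09 ± 0.22 SE, adjusted p = 0.92) and Nefm 121 ± 39.3 CPM under anti-VEGFA and 198 ± 42.9 CPM under IgG (log2 difference -0.71 ± 0.22 SE, adjusted p = 0.31). Under IgG, Nefm, Nefh and Nefl stood at 0.680, 0.537 and 0.614 of the nOIR level (adjusted p = 0.25, 0.025 and 0.11, edgeR). Between anti-VEGFA and IgG, the log2 difference was -0.25 ± 0.21 SE for Nefh and -0.29 ± 0.22 SE for Nefl (adjusted p = 0.70 and 0.65, edgeR). Among the 3 genes with the smallest p between anti-VEGFA and IgG were C1ql2, a synaptic C1q-like protein (log2 difference -1.03 ± 0.22 SE, adjusted p = 0.22), and Tcof1, a nucleolar protein (log2 difference -1.004 ± 0.22 SE, adjusted p = 0.22). List medians against nOIR under anti-VEGFA and under IgG were 1.49 and 1.68 for microglia and macrophages, 0.14 and 0.70 for pan-endothelial genes, 0.31 and 0.39 for tip cell genes, −0.38 and −0.10 for glycolysis, and −0.58 and −0.17 for ganglion cells and neurofilaments.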

How the data were processed

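The authors deposited RSEM expected counts and TPM values for 42037 gene symbols in 40 libraries. The tools and build (STAR 2.7.10a, RSEM 1.3.3, GRCm38.p4) come from the submitters' processing notes, and the annotation used is not known here. Each library came from 1 whole retina per the labels' protocols, by way of total RNA, SMART-Seq mRNA cDNA and Nextera XT tagging. Neither strand nor molecular identifiers are mentioned, so overlapping and antisense genes cannot be told apart. Of the nonzero expected counts that the authors deposited 15.7% were not whole; all were rounded.

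Low counts were removed by group, TMM factors were taken, and edgeR 4.0.16 (robust quasi-likelihood) was run on all 40 libraries in 10 groups. A gene was called at a Benjamini-Hochberg adjusted p under 0.05, where the adjusted p-values of the lists are those over all 23495 genes. CPM values are per library, means are given with the SD over 4 retinas, and folds are the model's. Retinas were treated as independent, although the labels do not say which came from 1 mouse. The p-values set each difference against the spread between libraries within groups, estimated over all 40 libraries. They could be too small if retinas of a group shared a mouse. No pair of compared libraries agreed within sampling noise. TPM values, the authors' length-scaled unit, served for an alternative with limma 3.58.1 on log2(TPM + 1). Exon lengths and gene positions came from GENCODE on GRCm38, matched by symbol. The same test was tried on simulated data with known folds.

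Genes are named where they were among the 10 of largest fold called in each direction (at least 5 CPM in the higher group, no overlap), the up to 4 called members of a list with smallest p, a fixed set of vessel, glia and tissue genes, the genes called between ages, and the 3 smallest p against IgG; further list members were named after their values were seen, and 2 genes under this rule are not reported here. The groups compared and the 34 lists were chosen with earlier results of these data known. The mitochondrial genome list was not tested, since its protein-coding members were not analysed here. Alternatives were DESeq2 1.42.0, limma-voom, RLE factors, no filter, TPM with pseudocounts of 1 and 0.1, the 8 libraries alone, no IgG libraries, a block on replicate number, covariates (Y-linked, mitochondrial, pigment epithelium, lens), and leaving out libraries. Leaving out anti-VEGFA OIR replicates 3 and 4 together, and the exon length trend, were added after seeing the data.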

Additional observations from a re-analysis of the deposited data

Results flagged for a closer look

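In 11 of 178 groups of 4 values tested, 1 retina lay apart from the other 3 by more than the 95% limit of Dixon's test, and chance gives about 1 in 20 such groups. In anti-VEGFA OIR retinas at P19 these were Dab2 in replicate 4 (13.02 CPM), Pfkm in replicate 1 (125 CPM), Apln in replicate 3 (7.66 CPM), Ifitm2 in replicate 4 (15.1 CPM), Edn2 in replicate 2 (10.7 CPM), Tek in replicate 1 (3.76 CPM) and Cldn5 in replicate 2 (9.32 CPM). In nOIR retinas at P19 these were Hk2 in replicate 1 (103.6 CPM), Trem2 in replicate 4 (1.43 CPM), Kdr in replicate 3 (54.2 CPM) and Esm1 in replicate 1 (1.21 CPM).

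For 2 genes the effect of anti-VEGFA OIR against nOIR differed between the ages by edgeR's test of the difference itself, Canx with a log2 difference of −1.15 and Kcnab2 with −1.14, P19 minus P17. With 1 retina left out, between 0 and 108 genes were called for this difference.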

How the results depend on the processing

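For anti-VEGFA OIR against nOIR at P19, the count of 1111 became 2044 (1007 higher, 1037 lower) with DESeq2, 2060 (474 higher, 1586 lower) and 2067 (481 higher, 1586 lower) with limma on log2(TPM + 1) and log2(TPM + 0.1), 54 with the mitochondrial share as covariate, 289 to 1512 with 1 library left out, and 32 without anti-VEGFA OIR replicates 3 and 4. The other settings lay within 1.5 times of it, and the share of calls that were higher was 38.4% without the filter, 60.6% with pigment epithelium and 61.0% with that and lens as covariates. At P17 the count of 151 became 86 without the filter, 344 with DESeq2, 80 with pigment epithelium and lens covariates, and 57 to 153 with 1 library left out. The difference between ages (2) became 183 with DESeq2, 183 with limma-voom, 14 with TPM, 1 (a gene other than these 2, and higher) with the covariates, 8 with the length trend removed, 0 without both libraries, and 0 to 108 with 1 left out. Against IgG the count of 0 became 38 with DESeq2, 2 with TPM, 1 with the length trend removed, and 0 to 88 with 1 left out. The causes of these shifts were not tested.

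The replicate numbers did not pair the samples (same-number correlations −0.057, −0.053, 0.0077 and 0.0092). With a replicate block 1146 genes were called on all libraries and 1077 on the 8 alone, and 11 for the difference between ages.

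Genes that were not called changed sign in log2 fold change under some settings. With the mitochondrial covariate Kdr stood at 0.25, Flt1 at 0.23 and Tek at 0.24. Without anti-VEGFA OIR replicates 3 and 4 Kdr stood at 0.052, Tek at 0.84, Rpe65 at −0.24 and Cryaa at −1.11. With the length trend removed Rpe65 stood at −0.013 and Cryaa at −0.064. Rpe65 stood at −0.190 on log2(TPM + 1) and −0.195 on log2(TPM + 0.1), and Cryaa at −0.0085 without the filter. With 1 library left out, Kdr lay between −0.33 and 0.0029, Flt1 between −0.13 and 0.045, Tek between −2.17 and 0.35, Rpe65 between −0.38 and 0.41, and Cryaa between −0.58 and 0.70. Over the genes named here by rule and alternatives, 1733 values kept direction and side of the threshold, 343 lost the call, 17 gained it and 26 changed sign. Genes near 0 CPM, such as Ccl2 and Esm1, could not be resolved at these depths.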

Other observations

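Leaving out anti-VEGFA OIR replicates 3 and 4 left 32 called genes, of which several stand in none of the lists; those below were chosen after their values were seen. Anxa1, annexin A1, a calcium-dependent membrane protein that dampens inflammation, had 90.2, 102.8, 117 and 102.1 CPM in the anti-VEGFA OIR retinas, against 39.7, 40.5, 53.6 and 50.5 CPM in the nOIR retinas. It was 2.24-fold higher with all libraries (adjusted p = 0.00012, edgeR) and had an adjusted p of 0.016 without both. Prdx4, a peroxiredoxin of the endoplasmic reticulum, had 51.6, 44.0, 64.1 and 68.3 CPM in anti-VEGFA OIR, against 17.2, 26.7, 21.6 and 17.9 CPM in nOIR, a 2.74-fold rise (adjusted p = 0.00012, edgeR). Mgp, matrix Gla protein, an inhibitor of calcification, had 11.5, 9.25, 11.98 and 12.7 CPM in anti-VEGFA OIR, against 3.32, 2.45, 5.09 and 3.72 CPM in nOIR, a 3.11-fold rise (adjusted p = 0.00078, edgeR).

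Rph3a, rabphilin 3A, a synaptic vesicle protein, was 1 of 2 genes called lower both with all libraries and without those 2, the other being Hk2. It had 49.0, 36.2, 39.1 and 48.4 CPM in anti-VEGFA OIR, against 76.0, 97.9, 92.2 and 88.2 CPM in nOIR, with no overlap between the groups (log2 fold change −1.04 ± 0.17 SE, adjusted p = 0.00045, edgeR). At P17 the same gene had a fold of 0.660 (adjusted p = 0.097, edgeR), and the difference between ages was not called (log2 difference -0.44 ± 0.24 SE, adjusted p = 0.60, edgeR). Ip6k2, an inositol hexakisphosphate kinase, had 62.2, 58.2, 63.9 and 74.8 CPM in anti-VEGFA OIR at P19, against 31.8, 31.9, 37.2 and 37.8 CPM in nOIR (1.87-fold, adjusted p = 0.0002, edgeR), and a fold of 0.982 at P17.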
